A study of Mus musculus with 2 samples.

Results

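The 5 microRNA (miRNA) genes Mir335, Mir675, Mir483, Mir296 and Mir298 lie in or near the imprinted genes Mest, H19 and Igf2 and the imprinted Gnas region. They were chosen by symbol and position, and all 5 were found among the 1973 miRNA genes of the tables by their Ensembl identifiers. The data are small-RNA sequencing of limb tissue taken at embryonic day 10.5, when the limb is a bud, from B6NCrl mouse embryos of both sexes. There was 1 group of 2 biological replicates: 69 embryos were pooled for replicate 1 and 51 for replicate 2. Nothing was treated or deleted, and the labels state no contrast, so values are compared between genes and between the pools. The strain is inbred and the tables hold counts per gene, so the parental allele behind each count was not measured.

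An imprinted gene is transcribed mainly from the allele inherited from 1 parent, and a miRNA cut from its transcript can share that bias. Mest, which encodes a hydrolase-like protein of embryonic mesoderm, and Igf2, a fetal growth factor, are known to be expressed from the paternal allele. H19, a long noncoding RNA next to Igf2, is known to be expressed from the maternal allele. In the Gnas region, named for a G protein subunit, the antisense transcript Nespas is paternal, and Mir296 and Mir298 are known as paternally expressed miRNAs of its strand. On this background knowledge 4 of the genes were treated as paternal and Mir675 as maternal.

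Each hairpin yields a mature miRNA from its 5′ arm and one from its 3′ arm, and bases 2 to 8, the seed, lead target pairing. The mature sequences of the 5 genes are printed from RefSeq (GRCm38.p6), 5′ to 3′ with the seed in capitals, because they show that the genes are not copies of each other.
miR-335-5p: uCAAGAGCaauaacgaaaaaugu
miR-335-3p: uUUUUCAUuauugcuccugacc
miR-675-5p: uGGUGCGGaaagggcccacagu
miR-675-3p: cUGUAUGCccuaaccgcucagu
miR-483-5p: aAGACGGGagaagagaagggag
miR-483-3p: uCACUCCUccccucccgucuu
miR-296-5p: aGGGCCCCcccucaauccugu
miR-296-3p: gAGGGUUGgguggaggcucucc
miR-298-5p: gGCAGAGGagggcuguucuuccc
miR-298-3p: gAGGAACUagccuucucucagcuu

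The 10 arms carry 10 different seeds. None of these seeds occurs in a mature miRNA of another gene among the 1738 mature entries searched, so Mir296 and Mir298 are neighbours in the genome without being a seed family. No arm was found whole in the hairpin of another gene (1005 hairpins searched). Among 141767 GENCODE transcripts, only the arms of Mir675 were found outside their own miRNA gene, in H19 transcripts. A genome-wide search for further copies was not made. Base composition differed between the arms: miR-335-5p had the lowest GC content, 30.4%, and miR-296-3p the highest, 68.2%. miR-483-5p consists of purines at 95.5% of its bases, and miR-483-3p at 9.52%.

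The hairpins of the most and the least abundant of the 5 genes are shown whole, with both mature arms in capitals, because the tables count reads per hairpin without separating these arms.
Mir335: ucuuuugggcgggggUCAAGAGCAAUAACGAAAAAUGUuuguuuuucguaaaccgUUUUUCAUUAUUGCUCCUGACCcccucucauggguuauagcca
Mir675: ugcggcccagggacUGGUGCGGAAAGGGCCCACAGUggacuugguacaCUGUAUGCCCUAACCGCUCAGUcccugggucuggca

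The Mir335 hairpin has 98 bases and a GC content of 42.9%, below the median of 51.7% over 1005 hairpins. The other 4 hairpins have 73 to 84 bases and GC contents above that median, from 53.7% for Mir298 to 63.3% for Mir296. The minimum free energy computed with RNAfold was -0.452 kcal/mol per base for Mir335 and -0.667 for Mir675, against a median of -0.406. By this measure Mir675 was more stable than 97.7% of the hairpins and Mir335 more stable than 70.0%. The order of predicted stability was therefore not the order of the counts described below.

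Positions were taken from GENCODE M21 on GRCm38, the build called mm10 in the files. Mir335 (chromosome 6, 30741299 to 30741396, plus strand) lies in an intron in all 7 of the Mest transcripts that span it, 17752 bases from the annotated 5′ end of Mest. Mir483 (chromosome 7, 142654924 to 142654996, minus strand) lies in an intron in all 7 Igf2 transcripts that span it, and also within an intron of the overlapping gene Gm49394. Mir675 (chromosome 7, 142577064 to 142577147, minus strand) lies wholly in an exon in 3 of the 4 H19 transcripts that span it, and in an intron in 1. Mir483 and Mir675 are 77.8 kb apart on the same strand. Mir296 (chromosome 2, 174267047 to 174267125) and Mir298 (174267504 to 174267585) are on the minus strand with 378 bases between them. No annotated gene spans either of them: the annotated end of Nespas, on the same strand, lies 13651 bases before Mir298 and 14111 bases before Mir296.

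**Figure D1:**
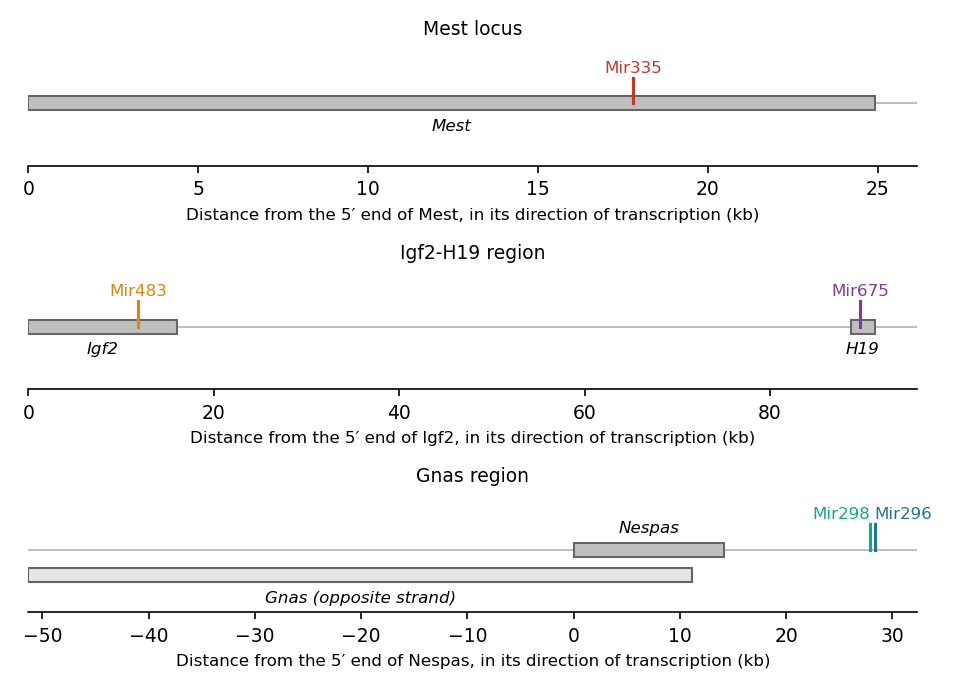
Positions of the 5 miRNA genes at the Mest locus, the Igf2-H19 region and the Gnas region, with distance in kb along the x axis from the 5′ end of the first host gene in its direction of transcription. Grey boxes are annotated genes and coloured lines are miRNA genes; Mir298 and Mir296 lie beyond the annotated end of Nespas.

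The libraries held 10064833 (replicate 1) and 7218612 (replicate 2) reads. Of these, 3581672 and 3576482 were sense counts in miRNA genes, and CPM are counts per 1000000 of them. Small-RNA reads cover a mature miRNA, so CPM were not divided by hairpin length. Reads matching several loci, 32.3% and 31.2% of mapped reads, were assigned to no gene. The limb and mesenchyme marker list (Mir10a, Mir10b, Mir196b, Mir199b, Mir214 and Mir143) held 20.3% and 19.2% of sense counts, with 6 of 6 detected. The endothelial Mir126a held 2.67% and 2.37%. The other marker lists totalled, in replicate 1 and then replicate 2, 451 and 254 CPM for erythroid and 731 and 611 for leukocyte. Neural markers totalled 147 and 182 CPM, liver 24.8 and 5.59, and skeletal muscle 27.9 and 105. The CPM totals thus moved in a direction that depended on the list. The log2 ratio of replicate 2 to replicate 1 had a median of -0.27 over 250 genes described below. Mir126a (-0.17) and the leukocyte list (median -0.28) lay near this common shift, so their lower CPM do not show a marker difference. Neural Mir137 and Mir219a-1 were at 0.64 and -0.18, and erythroid Mir451a and Mir144 at -0.88 and -0.26. Liver Mir122 was at -2.10, from 89 and 20 counts, and skeletal muscle Mir206 at 1.86, from 96 and 350. Whether these moves bear on ratios between the pools was not tested. Of 7 measured neural markers 3 had no count, and their mature sequences are encoded at several loci. In bulk tissue, fewer cells of a type and less RNA per cell cannot be told apart.

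All 5 genes were detected with at least 10 sense counts in both libraries, a rule met by 17.6% of all miRNA genes. The lowest of the 10 values was 836 counts. Their median level was 4401 CPM, against 136 CPM over the 348 detected genes. A mean of at least 1000 CPM was reached by 4 of the 5, against 4.82% of all miRNA genes. The levels fell into 3 tiers: Mir335 far above the rest, Mir296, Mir483 and Mir298 close together, and Mir675 lowest. Levels here and below are reads. Whether each sequence was captured and amplified equally well was not measured, so differences in reads between genes may not equal differences in molecules.

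**Figure D2:**
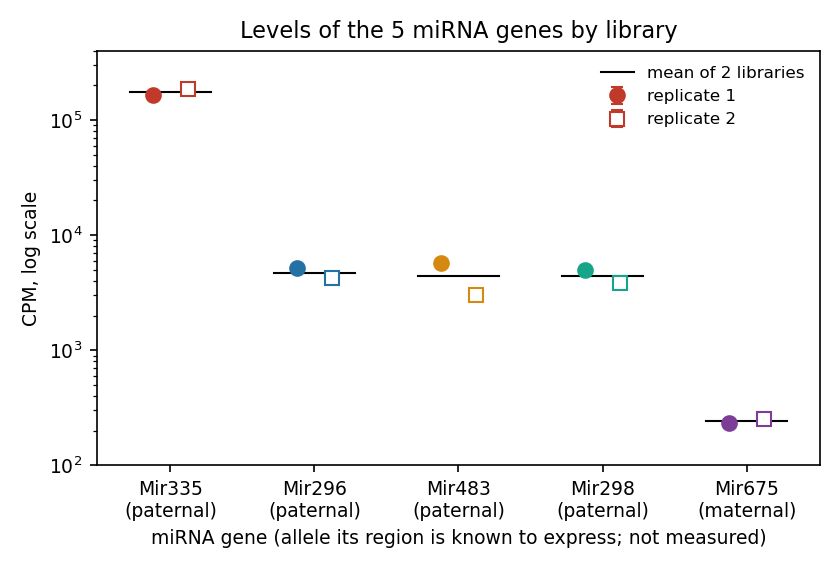
Level of each miRNA gene in CPM (log scale) in replicate 1 (filled circles) and replicate 2 (open squares), with 95% exact Poisson intervals, which are mostly smaller than the symbols, and the mean of the 2 libraries as a line. Mir335 is at 166020 CPM or above in both libraries, 3 genes lie between 3035 and 5767 CPM, and Mir675 is near 242 CPM.

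Mir335, from the Mest intron, had 594628 counts in replicate 1 and 667558 in replicate 2. These are 166020 CPM (165598 to 166442) and 186652 CPM (186205 to 187100), with 95% exact Poisson intervals. Intervals cover counting error within a library only, not variation between pools. PCR copies of a molecule are counted as separate reads, so the intervals may be too narrow. The mean was 176336 ± 14589 CPM (SD, n = 2), and Mir335 ranked first in both libraries among reads assigned to a gene. Reads matching several loci, 21.9% and 25.4% of all reads, were assigned to none, so miRNAs encoded at several loci may be undercounted. Unmapped reads were a further 32.3% and 18.6%. Mir335 took 16.6% and 18.7% of all sense counts, and 5.91% and 9.25% of all reads including those given to no gene. In replicate 1 the next 2 genes, Mir17 and Mir10b, were needed to exceed its count. In replicate 2 the next 3, Mir17, Mir196b and Mir10b, were needed, since Mir17 and Mir196b together had 599312 counts. At the other end, the 606 least abundant genes with counts in replicate 1 (of 645 others) and the 590 least abundant in replicate 2 (of 620) together had fewer reads than Mir335 alone.

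Mir17, the most abundant other gene and a member of the proliferation-associated cluster in Mir17hg, had 86997 CPM in replicate 1 and 93602 CPM in replicate 2. The log2 ratio of Mir335 to Mir17 was 0.93 in replicate 1 and 0.996 in replicate 2, a mean of 0.96 ± 0.045 (SD, n = 2). Mir335 was thus 1.91-fold and 1.99-fold above Mir17, and the 2 pools gave nearly the same ratio. Mir17 and Mir10b were also the 2 genes closest to Mir335 by log2 CPM over both libraries, at distances of 1.36 and 2.00. No gene thus had a similar level in assigned reads. Among the 650 miRNA genes in introns of protein-coding hosts, Mir335 alone had 38.0% of the sense counts in replicate 1 and 44.3% in replicate 2. The next gene of that class, Mir10b in the Hoxd cluster, was 1.99-fold lower in replicate 1 and 3.33-fold lower in replicate 2.

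**Figure D3:**
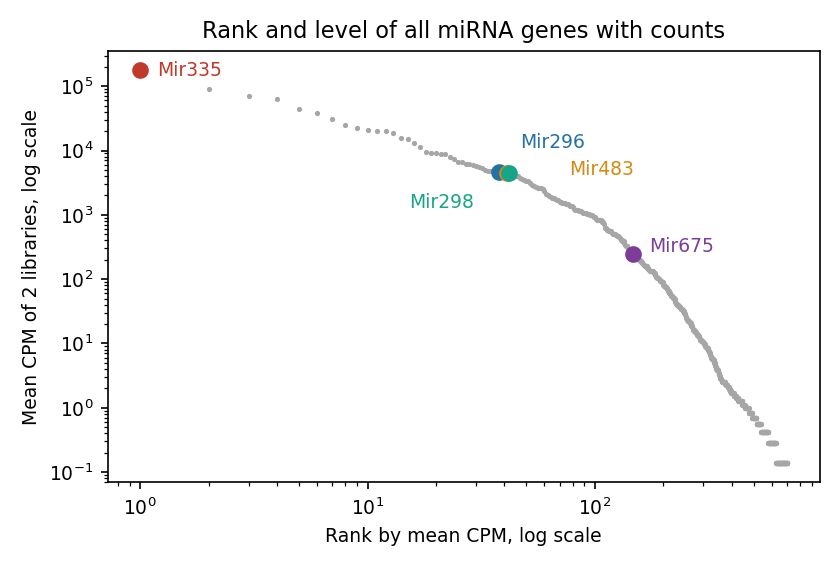
Mean CPM of every miRNA gene with counts (y axis, log scale) against its rank (x axis, log scale), with the 5 genes coloured. Mir335 is at rank 1, Mir296, Mir483 and Mir298 are at ranks 38, 41 and 42, and Mir675 is at rank 147.

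Of the summed counts of the 5 genes, Mir335 made up 91.1% (91.1 to 91.2, exact binomial) in replicate 1 and 94.3% (94.2 to 94.3) in replicate 2, a mean of 92.7% ± 2.22 (SD, n = 2). The 5 genes together held 18.2% and 19.8% of all sense counts, and without Mir335 they held 1.61% and 1.13%. Relative to the 4 others together, Mir335 was 10.3-fold higher in replicate 1 and 16.5-fold higher in replicate 2. The size of the excess moved between the pools, with Mir335 higher and the total of the others lower in replicate 2.

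Mir296 and Mir298, the pair at the Gnas region, had nearly equal counts. Mir296 had 18534 counts (5175 CPM) in replicate 1 and 15067 counts (4213 CPM) in replicate 2, a mean of 4694 ± 680 CPM (SD, n = 2). Mir298 had 17776 counts (4963 CPM) and 13724 counts (3837 CPM), a mean of 4400 ± 796 CPM (SD, n = 2). In CPM both genes were lower in replicate 2, but as a share of all reads both were higher there, at 0.184% and 0.209% for Mir296 and 0.177% and 0.190% for Mir298. Mir298 lay below Mir296 in each library. The log2 ratio of Mir298 to Mir296 was -0.060 (-0.090 to -0.030) in replicate 1 and -0.13 (-0.17 to -0.10) in replicate 2. Mir298 was therefore 1.04-fold and 1.10-fold lower. Equal counts lay outside the counting intervals, which may be too narrow. The difference was small and its size was unequal in the 2 pools. The mean ratio of -0.097 ± 0.053 (SD, n = 2) rests on 2 libraries.

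Mir483, from the Igf2 intron, had the most unequal counts of the 5 genes. It had 20656 counts (5767 CPM) in replicate 1 and 10853 counts (3035 CPM) in replicate 2, a mean of 4401 ± 1932 CPM (SD, n = 2). Its rank was 32 in replicate 1 and 52 in replicate 2. In replicate 1 it was the second of the 5, above Mir296 and Mir298, and in replicate 2 it was below both. The order of these 3 genes was therefore not settled by the replicates, and their means differ by less than the SD of Mir483.

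Mir675, from the H19 exon, was the least abundant of the 5. It had 836 counts (233 CPM, 218 to 250) in replicate 1 and 898 counts (251 CPM, 235 to 268) in replicate 2, a mean of 242 ± 12.5 CPM (SD, n = 2), and the 2 intervals overlap. Its rank was 155 and 138. By distance of log2 CPM over both libraries together, the genes nearest to Mir675 were Mir210 and Mir669o. In a single library other genes can be nearer. Mir210 had 235 ± 13.9 CPM (SD, n = 2). Mir669o, in the paternally expressed imprinted gene Sfmbt2, had 242 ± 25.2 CPM (SD, n = 2).

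The nearest genes of the middle tier were picked by level, so their closeness in level follows from the choice. Mir296 was nearest to Mir23a (4778 ± 732 CPM) and Mir351 (4845 ± 659 CPM), both with SD over n = 2. Mir298 was nearest to Mir127, a maternally expressed miRNA gene of the Dlk1-Dio3 region, at 4161 ± 593 CPM (SD, n = 2), and then to Mir615. Mir483 was nearest to Mir615 of Hoxc5, at 4443 ± 1243 CPM, and Mir541 of Mirg, at 4025 ± 778 CPM (SD, n = 2). Distances on the log2 scale were 0.037 for Mir23a, 0.12 for Mir127 and 0.26 for Mir615 to Mir483.

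Genes of regions known for paternal expression far outnumbered Mir675 in reads. The 4 genes Mir335, Mir483, Mir296 and Mir298 together had 651594 counts in replicate 1 and 707202 in replicate 2, against 836 and 898 for Mir675. The log2 ratio was 9.60 (9.51 to 9.71) in replicate 1 and 9.62 (9.53 to 9.72) in replicate 2, a mean of 9.61 ± 0.011 (SD, n = 2), which is 783-fold. The agreement of the 2 pools was closer than the counting interval of either. Without Mir335 the log2 ratio was 6.09 (5.99 to 6.19) and 5.46 (5.37 to 5.56), that is 68.1-fold and 44.1-fold. Without Mir296 and Mir298, which no annotated gene spans, the mean was 9.54. With 1 gene on the maternal side, this is a comparison with Mir675 and not of maternal hosts in general.

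Taken singly, each of the 4 genes was above Mir675 in both libraries. Mir335 was 710-fold and 743-fold above it, a log2 ratio of 9.50 ± 0.045 (SD, n = 2). Mir296 was 22.1-fold and 16.8-fold above Mir675, and Mir298 21.2-fold and 15.3-fold. Mir483, its neighbour across the Igf2-H19 region, was 24.7-fold above it in replicate 1 and 12.1-fold in replicate 2. The corresponding log2 ratios of Mir483 to Mir675 were 4.63 (4.53 to 4.73) and 3.59 (3.50 to 3.70), a mean of 4.11 ± 0.73 (SD, n = 2). The direction was the same in both pools and the size was not.

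Between the pools, the 5 genes did not move as a group. Log2 ratios are replicate 2 minus replicate 1 with a prior count of 1, and are set beside those of the 250 genes averaging 100 counts or more, whose median was -0.27. Mir335 was higher in replicate 2 by 0.17 (0.16 to 0.17). Mir675 had a ratio of 0.11 (-0.032 to 0.24), an interval that includes 0. Mir296 had a ratio of -0.30 (-0.33 to -0.27) and Mir298 of -0.37 (-0.40 to -0.34). Mir483 had a ratio of -0.93 (-0.96 to -0.89), a 1.90-fold decrease. Lower CPM in replicate 2 were thus found for 3 of the 5, against 66.8% of the 250 genes, and a difference over 2-fold for 0 of 5, against 10.8%. All reads of the library include unmapped reads, 32.3% in replicate 1 and 18.6% in replicate 2. Taking them as denominator raised the ratio of every gene by 0.48. Per all reads only Mir483 was lower, 1 of 5 against 32.4%, and the ratios of Mir296 and Mir298 turned to 0.18 and 0.11. These are descriptions, since with 2 libraries the smallest two-sided exact sign-flip p is 0.5.

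Scaling by edgeR's TMM factors raised every ratio by 0.29. Such a common shift cannot change positions relative to the median of the 250 genes, so these are also given. Mir335 and Mir675 lay 0.44 and 0.38 above that median, with 78.8% and 73.6% of the 250 genes at or below them. Mir296 and Mir298 differed from it by -0.026 and -0.10, near the middle of the distribution. Mir483 differed from it by -0.66, and 11.6% of the 250 genes had a ratio as low or lower. With TMM the ratio of Mir296 was -0.0073 and that of Mir483 was -0.64, so of the 3 genes lower in CPM only Mir483 stayed well away from 0 under TMM scaling, and it was the only one still lower per all reads, at -0.45.

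**Figure D4:**
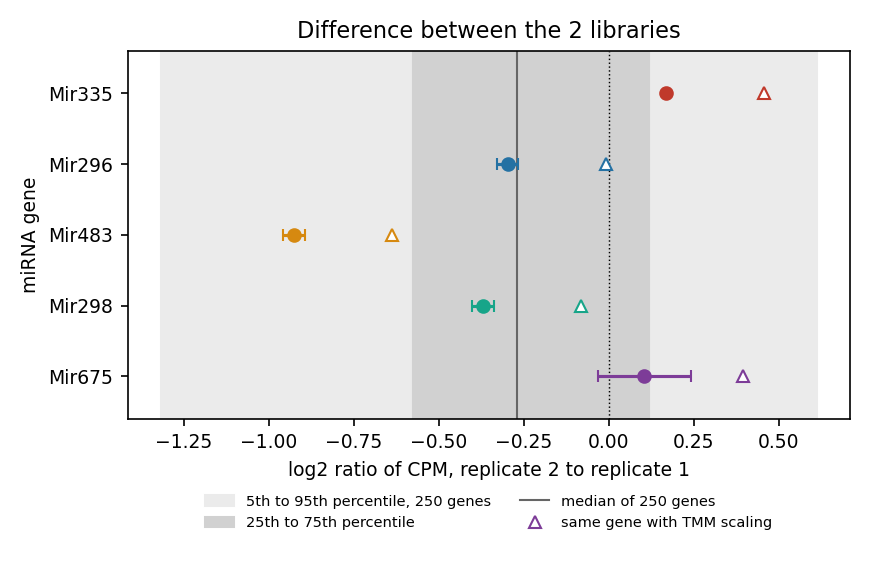
Log2 ratio of CPM of replicate 2 to replicate 1 for each of the 5 genes (filled circles, with 95% exact binomial counting intervals) and the same ratio with TMM scaling (open triangles). Shading gives percentiles of the 250 genes averaging 100 counts or more under scaling by the sense total, and Mir483 lies below the 25th percentile.

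**Figure D5:**
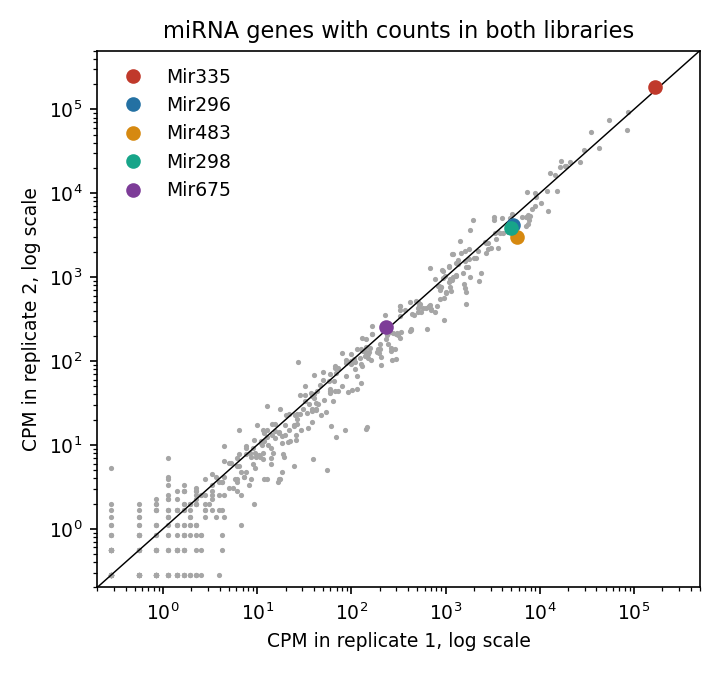
CPM of replicate 2 (y axis, log scale) against replicate 1 (x axis, log scale) for miRNA genes with counts in both libraries, with the line of equal CPM. Mir335 is the highest point in both libraries, and Mir483 lies below the line, at 5767 and 3035 CPM.

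Other imprinted miRNA genes were read from a list of 28, of which 27 were measured: miRNA genes near Meg3 and Rtl1, whose strand of the Dlk1-Dio3 region is transcribed from the maternal allele while Dlk1, Rtl1 and Dio3 themselves are paternal, together with Mir184 and the Mir344 genes. The list leaves out the distal Mirg cluster of the region and the Sfmbt2 miRNA genes. Of these 13 were detected, all on chromosome 12, where 14 were measured. Mir431 had 5914 ± 2325, Mir127 4161 ± 593, Mir337 1491 ± 243 and Mir341 1027 ± 157 CPM (SD, n = 2). The whole list totalled 19712 CPM in replicate 1 and 13405 CPM in replicate 2. Mir335 was 8.42-fold and 13.9-fold above that total. Mir483, Mir296 and Mir298 together were below it, by 1.24-fold and 1.21-fold. The list was in turn 84.4-fold and 53.3-fold above Mir675. These folds depend on which genes are listed. With all 59 measured miRNA genes between Dlk1 and Dio3 and the 107 spanned by Sfmbt2 added, the total of 179 genes was 67971 CPM in replicate 1 and 47973 CPM in replicate 2. Mir335 was then 2.44-fold and 3.89-fold above the total. The total was 4.27-fold and 4.33-fold above Mir483, Mir296 and Mir298 together, and 291-fold and 191-fold above Mir675. Many Sfmbt2 genes are near-identical copies, so their part in the total is uncertain.

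The genes of that list outside chromosome 12 had few reads. Mir184, which is known as paternally expressed in brain, had 10 counts and 6 counts. The 12 Mir344 genes, from an imprinted region of chromosome 7, had at most 4 counts each, and 9 of them had none in either library. The Mir344 genes are numbered copies, and a read that matches several copies was not assigned, so these counts set no limit on the sequences. All 12 genes of the list averaging 100 counts or more were lower in replicate 2, with log2 ratios from -1.39 to -0.25, against 66.8% of the 250 genes. Per all reads, 8 of the 12 were lower, against 32.4%. All 12 lie in the same imprinted region of chromosome 12, so they need not be independent of each other. In CPM, Mir296, Mir298 and Mir483 lay within that range, and Mir335 and Mir675 lay above it.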

How the data were processed

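The authors deposited raw read counts per miRNA gene, 1 table per library, in 3 columns (both strands, sense, antisense) with 4 rows for reads given to no gene, which were left out of library sizes. Per the deposited readme texts, reads were aligned to mm10 and counted over GENCODE M4. Which aligner and counting program were used is not stated in any source used here. Sense counts were converted to CPM over all gene rows. Of 1973 identifiers, 1894 matched GENCODE M21 by ID and 79 did not. Sequences came from RefSeq tables (GRCm38.p6), in which 5 of 5 genes matched, and hairpins were folded with RNAfold 2.7.2. A prior count of 1 was added to counts in log2 ratios. Intervals are 95% exact Poisson for levels and exact binomial for shares and ratios. A count of 0 allows 3 counts, 0.838 CPM in replicate 1 and 0.839 CPM in replicate 2.

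The named genes are the 5 genes, the 2 nearest to each by Euclidean distance of log2 CPM, the most abundant other gene, and from the list of other imprinted miRNA genes up to 4 with at least 1000 mean CPM and those outside Dlk1-Dio3. Mir10b and Mir196b are also named as abundant genes. The genes and lists were chosen with earlier results of these data known. Alternatives were TMM factors (edgeR 4.0.16), DESeq2 1.42.0 size factors, other denominators, strands, prior counts and leaving out a library. Scaling and intervals were tested on simulated Poisson counts. These hold no PCR copies and no variation between pools, so the test cannot show whether the intervals are too narrow for the real counts. The software was R 4.3.3 and Python 3.11.15 with scipy 1.17.1, pandas 2.3.3 and numpy 2.4.6.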

Additional observations from a re-analysis of the deposited data

Results flagged for a closer look

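Antisense counts, which no comparison above uses, were found at Mir335 alone among the 5 genes. There were 6 antisense counts in replicate 1 and 3 in replicate 2, against 594628 and 667558 sense counts. The value in replicate 1 was above the 3 counts that a count of 0 allows. The antisense share was 0.00101% (0.00037 to 0.0022, exact binomial) in replicate 1 and 0.000449% in replicate 2. For the other genes of the 5, upper limits in replicate 1 ran from 0.018% for Mir483 to 0.44% for Mir675. These limits lie above the share at Mir335, so antisense counts at Mir335 alone do not set it apart. Of the 250 genes averaging 100 counts or more, 17 had any antisense count in replicate 1 and 18 in replicate 2, and the median antisense share in replicate 1 was 0%. The pooled antisense share over all miRNA genes was 2.30% and 1.70% of gene reads, or 84234 and 61736 counts. It is not a level typical of a gene. Gm24321 alone, with 0 sense counts, had 40032 of these antisense counts in replicate 1 and 19820 in replicate 2. Groups of 2 libraries are too small for a check of single samples that stand apart.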

How the results depend on the processing

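Of 92 recomputed values, 67 moved by no more than the spread between libraries or the counting interval. Another 23 moved by more with the same sign, and 2 changed sign. Leaving out 1 of 2 libraries always moves a mean by less than the SD between them. Those recomputed values were therefore bound to count among the 67. Each gene had at least 836 sense counts and at most 6 antisense counts in a library. Other prior counts, detection minimums or both strands could therefore hardly change the ratios, the shares or the number detected. The 67 are thus not all evidence of stability. Per 1000000 of all reads, the levels were 75779 for Mir335, 104 for Mir675, 1778 for Mir483, 1964 for Mir296 and 1834 for Mir298. With Mir335 left out of the denominator, a choice made after seeing the data, they were 294 for Mir675, 5692 for Mir296 and 5334 for Mir298. The log2 ratio of the 4 paternal genes to Mir675 was 5.78 without Mir335 and 9.54 without Mir296 and Mir298, the latter also chosen after seeing the data. The log2 ratio of replicate 2 to replicate 1 was 0.46 for Mir335, 0.39 for Mir675, -0.64 for Mir483, -0.0073 for Mir296 and -0.082 for Mir298 with TMM, and 0.45, 0.38, -0.65, -0.021 and -0.095 with DESeq2 size factors. Per all reads, a choice made after seeing the data, it was 0.65 for Mir335, 0.58 for Mir675 and -0.45 for Mir483, and it changed sign to 0.18 for Mir296 and 0.11 for Mir298. The denominator, the genes summed or the shift common to all genes sets each of these moves. Leaving out a library gave 3035 to 5767 CPM for Mir483 and log2 ratios of 3.59 to 4.63 for Mir483 to Mir675. No paired analysis was possible because there is 1 group. Reads that match several loci are missing from all values, and counts per hairpin do not separate the arms.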
